A study of Mus musculus with 2 samples.

Results

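The enzymes that break down phenylalanine and tyrosine were examined in the prefrontal cortex (PFC) of mice with and without chronic mild stress (CMS). The 7 genes considered were Tat, Hpd, Hgd, Gstz1 and Fah, which encode the chain that degrades tyrosine, and Pcbd1 and Qdpr, which encode the enzymes that recycle the cofactor of phenylalanine hydroxylation. They were chosen by name, with earlier results of these arrays known, out of 37074 distinct names on the array, and every probe whose RefSeq accession belonged to 1 of them was used. All 7 had a probe, and Qdpr had 2, so that 8 probes were measured.

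RNA was measured on 2 single-color Agilent mouse arrays. One array was hybridized with pooled PFC RNA of the control group (C group, ordinary care) and the other with pooled PFC RNA of the CMS group, in which unpredictable mild stressors were applied for 4 weeks. All mice were males of the strain given as C57Bl/6 N sea, 9 to 10 weeks old at the start. The series text gives 7 mice in each pool. Both arrays lay on 1 slide and were read in 1 scan. CMS mice were housed singly and control mice in groups, so the effect of stress and that of housing cannot be told apart.

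Each group had 1 array and so no replicate. The spread between mice is not known, and no difference was tested. The genes were chosen with their readouts known, and their values are therefore a description. Each array was scaled to a mean probe signal of 2500, and a gene was counted as higher where the ratio of CMS over C was above 2 and as lower where it was below 0.5. Spots of 1 probe on these arrays, where well above background in both pools, gave log2 ratios with a standard deviation (SD) of 0.13 over 342 probes. This error leaves out the mice. Of 27119 names with a ratio, 532 (1.96%) were higher and 153 (0.564%) were lower. Without scaling these counts were 428 and 249, and the median log2 ratio of all names moved from -0.03 to -0.20. All 10 neuron markers were well above background on both arrays, with a median log2 ratio of -0.04 and values from -0.18 (Gad1) to 0.20 (Slc17a7). Gapdh, the reference gene of the study's methods, had a log2 ratio of 0.04 (-0.13 without scaling).

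In mammals phenylalanine is converted to tyrosine with tetrahydrobiopterin as the cofactor. Tyrosine is then transaminated by Tat, and Hpd, Hgd, Gstz1 and Fah act in that order until fumarate and acetoacetate are left. This chain is known mainly from liver and, for several of its enzymes, kidney. In the brain tetrahydrobiopterin also serves the hydroxylases that start the synthesis of dopamine and serotonin, so Pcbd1 and Qdpr have a role there that does not depend on tyrosine breakdown.

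Of the 7 genes, 2 passed the 2-fold threshold on the CMS side, Hpd and Hgd, which catalyze consecutive oxygen-consuming steps in the middle of the chain. None was more than 2-fold lower. The share of 2 among 7 stood beside a background of 1.96% for higher and 0.564% for lower, and nothing is read from this because the genes were chosen with these ratios in view. The median log2 ratio of the 7 genes was 0.36, against -0.03 for all names. The member just inside the 2-fold threshold had a log2 ratio of 2.50, and the one just outside had 0.74.

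Hpd encodes 4-hydroxyphenylpyruvate dioxygenase, which forms homogentisate. Its scaled signal was 47.7 in the C pool, with an error of 6.83 as modelled by the scanner software, and 560 with an error of 56.2 in the CMS pool. The probe was well above background on both arrays, and the CMS signal was far outside the modelled error of the C signal. The log2 ratio was 3.55, a fold change of 11.7, and it ranked 16 of the 27119 names, with bounds taken at their value. The log2 ratio of Hnf4a, the transcription factor on which the study centers, was also 3.55. Around the Hpd spot on the array, 96 neighboring spots had a median log2 ratio of -0.05.

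Hgd encodes homogentisate dioxygenase, which opens the aromatic ring. Its scaled signal was 9.34 with an error of 3.67 in the C pool, where the probe was not well above background, and 101 with an error of 10.7 in the CMS pool, where it was. Its level in the C pool is thus only bounded. Against 17.8, the lowest scaled signal among probes well above background on the C array, the CMS signal was higher by at least 5.66-fold, or 2.50 on the log2 scale. This bound holds for the processing used here. Normexp background correction with an added offset of 50, followed by quantile normalization, gave a log2 ratio of 1.35. Such an offset draws the ratios of dim probes toward 0. The ratio of the measured signals, 10.8, depends on a C signal that was not well above background. The 105 spots around it had a median log2 ratio of -0.06.

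Tat encodes tyrosine aminotransferase, which starts the chain and is known in liver as a target of glucocorticoids. Its scaled signal was 508 with an error of 51.0 in the C pool and 848 with an error of 84.9 in the CMS pool. It was thus 1.67-fold higher in the CMS pool, with a log2 ratio of 0.74, which did not pass the 2-fold threshold. The difference was larger than the SD between spots. It ranked 740 among the 27119 names.

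The last enzymes of the chain differed little between the pools. The signal of Gstz1, the isomerase that acts on maleylacetoacetate, went from 3872 (C) to 4382 (CMS), a log2 ratio of 0.18. The signal of Fah, the hydrolase that completes the pathway, was 829 and 906, a log2 ratio of 0.13. The value of Fah was smaller than the SD between spots, and that of Gstz1 was larger than it but smaller than its error as modelled by the scanner software, 0.20. Without scaling, Fah changed sign to -0.05 and Gstz1 was 0.01.

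The cofactor enzymes also stayed within 2-fold. The signal of Pcbd1, the dehydratase that acts directly after hydroxylation, went from 1699 (C) to 2183 (CMS). Its log2 ratio was 0.36. The brighter probe of Qdpr, the reductase that restores tetrahydrobiopterin, went from 14173 (C) to 13504 (CMS), and the other probe read 4997 and 4733. The log2 ratios of these probes were -0.07 and -0.08, so both were slightly lower in the CMS pool, by less than the SD between spots. Qdpr was the only member below 0.

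**Figure D1:**
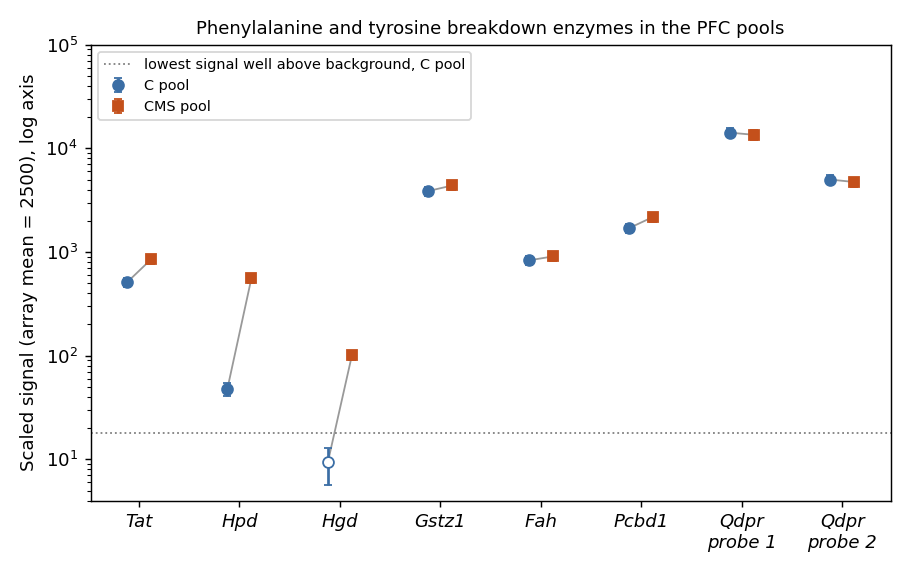
Scaled signal of the 8 member probes (log axis, array mean 2500) in the C pool (circles) and the CMS pool (squares), in pathway order and then the cofactor enzymes; bars are the errors modelled by the scanner software, and the open circle is not well above background. Hpd goes from 47.7 to 560 and Hgd from 9.34 to 101. Tat goes from 508 to 848 and Pcbd1 from 1699 to 2183, and the bars of neither gene overlap. The other probes differ less.

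The spread of ratios depended on the brightness of a probe, so the names were divided into 4 bins of equal size by mean signal and each member was read within its bin. In the dimmest bin, which held Hgd, the middle 95% of log2 ratios ran from -0.91 to 1.51. In the second bin, with Hpd, it ran from -0.41 to 0.66. In the third bin, which held Tat, Fah and Pcbd1, it ran from -0.30 to 0.28, so Tat (0.74) and Pcbd1 (0.36) lay above it and Fah (0.13) inside. In the brightest bin it ran from -0.22 to 0.17, with Gstz1 (0.18) above it by less than the SD between spots and Qdpr (-0.07) inside. Hpd and Tat thus lay above the range of their bins by more than the SD between spots, and Pcbd1 and Gstz1 by less. The bound of Hgd (2.50) also lay above its range. The SD between spots does not cover Hgd, which was dim in the C pool. The modelled error of its measured log2 ratio was 0.59.

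**Figure D2:**
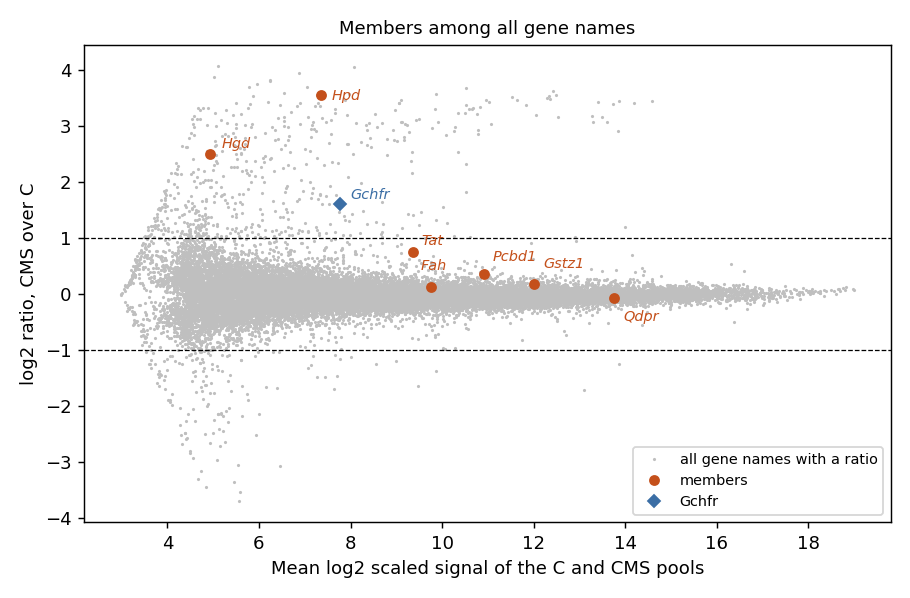
log2 ratio of CMS over C against the mean log2 scaled signal of both pools for the 27119 names with a ratio (grey), the 7 members (circles) and Gchfr (diamond); dashed lines mark 2-fold. Hpd (3.55) and Hgd (2.50, a lower bound in the processing used here) lie above the upper line, and Qdpr (-0.07) lies within the grey band.

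The hydroxylases that use the same cofactor in the synthesis of dopamine and serotonin were taken from a list that was written with earlier results of these data known. Th, the tyrosine hydroxylase of catecholamine neurons, read 3133 and 3250, a log2 ratio of 0.05. Tph1, a tryptophan hydroxylase, read 29.6 in the CMS pool, at least 1.59-fold above a C signal not well above background, and Tph2, its neuronal counterpart, did not stand well above background in either pool. Of these 3 genes, 2 had a ratio and none was past 2-fold, with the C level of Tph1 only bounded.

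Of 5 genes for the synthesis of tetrahydrobiopterin, 1 was higher and none lower, beside 1.96% and 0.564% of all names. Their median log2 ratio was 0.19 (0.02 without scaling). The higher gene was Gchfr, whose protein mediates the inhibition by tetrahydrobiopterin and the stimulation by phenylalanine of the first enzyme of the synthesis. It went from 126 (C) to 379 (CMS), 3.02-fold higher, with a log2 ratio of 1.59. That first enzyme, GTP cyclohydrolase (Gch1), read 169 and 299 on its brighter probe, a log2 ratio of 0.83, within 2-fold. The mean over both Gch1 probes was 0.56. The later enzymes Pts and Spr had log2 ratios of -0.06 and 0.04. Pcbd2, the paralog of Pcbd1, had 0.19.

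None of 12 other enzymes that act on tyrosine, phenylpyruvate or related compounds was past 2-fold in either direction. Their median log2 ratio was -0.01. By the brightest probe of each gene, Hpdl, a paralog of Hpd, was the highest, with 0.28 and signals of 209 and 254. The dimmer probes of Ddc and Kyat3 had 0.77, a lower bound, and 0.32, while their brighter probes had 0.05 and 0.27. Tyr, the tyrosinase of pigment cells, was the lowest, with -0.39 on the 1 of its 2 probes that gave a ratio. The aspartate aminotransferases Got1 and Got2, which can also act on aromatic amino acids, had -0.07 and -0.13.

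**Figure D3:**
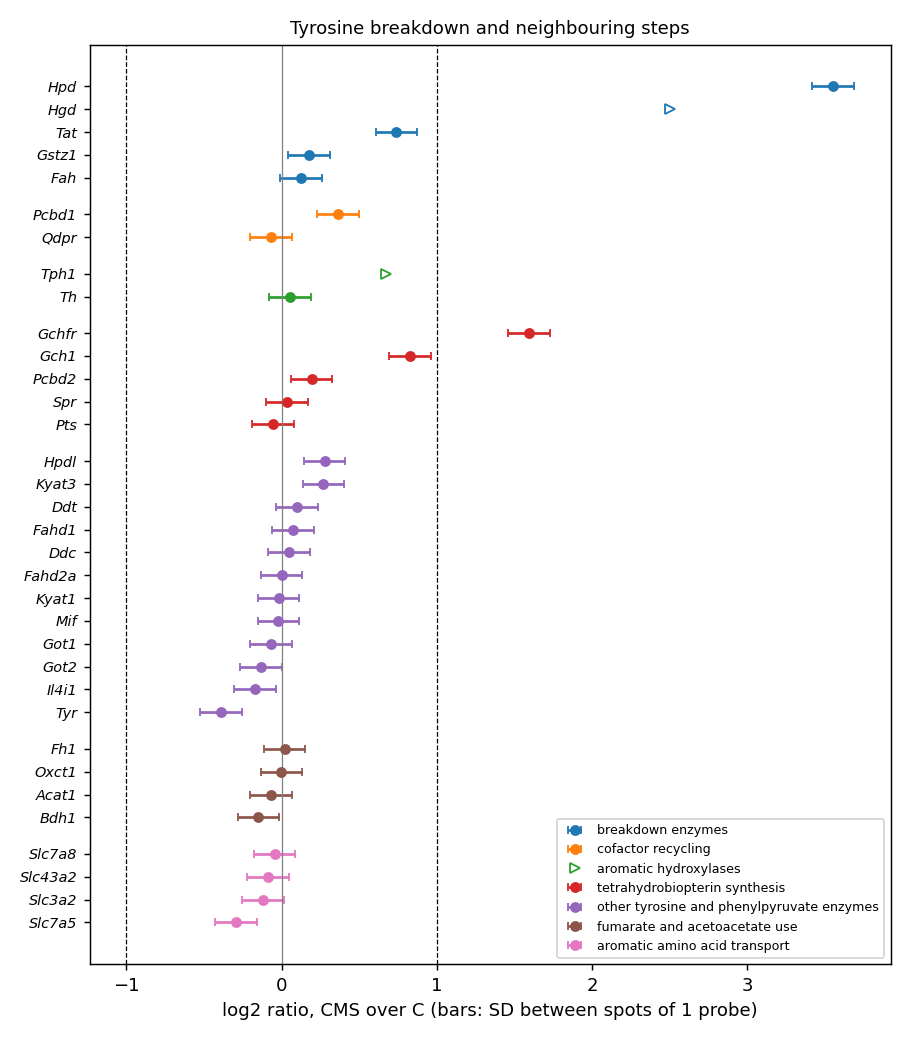
log2 ratio of CMS over C for the members and for genes of neighboring steps, grouped by list; bars are the SD between spots of 1 probe (0.13), open triangles are lower bounds without bars, and dashed lines mark 2-fold. Hpd, Hgd and Gchfr lie to the right of the 2-fold line, and every other gene plotted lies between the lines.

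The windows around the transcription starts were compared because Hpd and Hgd passed the 2-fold threshold and the other members did not. RefSeq windows of 250 bases before and 50 after the start (build GRCm38.p6) were found for all 7 members, with a second start for Gstz1. The windows of Hpd and Hgd are shown with that of Tat, the next highest member, and that of Qdpr, the lowest. Capitals mark CG dinucleotides.
Hpd, chr5:123182674-123182973, minus strand: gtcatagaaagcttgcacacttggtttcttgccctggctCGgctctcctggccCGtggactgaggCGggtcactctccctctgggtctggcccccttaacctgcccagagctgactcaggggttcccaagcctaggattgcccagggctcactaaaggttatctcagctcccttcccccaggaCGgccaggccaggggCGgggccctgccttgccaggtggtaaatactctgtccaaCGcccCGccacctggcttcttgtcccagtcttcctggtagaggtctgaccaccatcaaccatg
Hgd, chr16:37579903-37580202, plus strand: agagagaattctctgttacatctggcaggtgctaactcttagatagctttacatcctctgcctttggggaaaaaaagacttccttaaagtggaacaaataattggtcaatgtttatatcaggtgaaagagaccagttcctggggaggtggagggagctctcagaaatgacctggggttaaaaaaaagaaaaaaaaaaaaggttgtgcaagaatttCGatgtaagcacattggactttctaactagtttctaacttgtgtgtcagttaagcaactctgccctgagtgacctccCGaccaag
Tat, chr8:109990186-109990485, plus strand: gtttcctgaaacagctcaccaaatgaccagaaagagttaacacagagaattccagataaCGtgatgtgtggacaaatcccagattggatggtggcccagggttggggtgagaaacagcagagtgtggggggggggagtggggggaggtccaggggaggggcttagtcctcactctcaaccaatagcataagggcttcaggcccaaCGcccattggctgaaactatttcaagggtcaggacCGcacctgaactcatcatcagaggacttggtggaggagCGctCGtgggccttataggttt
Qdpr, chr5:45450180-45450479, minus strand: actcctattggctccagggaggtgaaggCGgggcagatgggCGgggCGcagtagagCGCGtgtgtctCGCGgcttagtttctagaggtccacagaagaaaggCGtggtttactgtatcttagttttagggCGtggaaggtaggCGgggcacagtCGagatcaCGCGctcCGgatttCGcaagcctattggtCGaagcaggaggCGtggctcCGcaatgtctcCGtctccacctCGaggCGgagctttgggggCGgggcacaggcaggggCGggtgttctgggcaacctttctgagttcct

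These windows held 7 CG dinucleotides for Hpd, 2 for Hgd, 5 for Tat and 23 for Qdpr. The window of Pcbd1 held 10 and that of Fah 19. The starts of Gstz1 held 15 and 3. The median of all 32851 windows was 7, with quartiles of 3 and 20. The counts did not follow the order of the ratios, since a start of Gstz1 held 3 and the window of Gchfr held 31.

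Motifs were searched on both strands, with their letters chosen after some of the sequences had been seen. AAAGTCCA, a core of the HNF4 element, was found once, in the Hgd window, and in 1.25% of all windows. TTGCNNAA, a C/EBP element, was found at 2 places in the Hgd window and 1 in the Qdpr window, and in 10.8% of all. TGTTCT, a core of the glucocorticoid receptor element, was found in the Qdpr window alone and in 19% of all. The Hpd window held none of these and 1 GC box (GGGCGG), which 35.7% of all windows hold. The Tat window held none of these either, and 3 CCAAT boxes (CCAAT, in 37.4% of all). The Hgd window held 2 CCAAT matches, 1 of which overlapped its AAAGTCCA match. A match describes the letters of the window only, and binding was not measured.

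Neighboring pathways of amino acid breakdown were listed for comparison. Of 10 genes of the kynurenine pathway, which degrades tryptophan, 7 had a ratio, 2 were higher and none lower, with a median log2 ratio of 0.89 and values from 0.11 for Ido2 to 2.59 for Tdo2, an entry enzyme. Of 10 genes of the urea cycle and arginine breakdown, 8 had a ratio and 3 were higher, with a median of 0.77 and values from 0.04 for Arg2 to 3.53, a lower bound, for Otc, ornithine transcarbamylase. The other probe of Otc had 1.09. Of 15 genes of methionine and betaine metabolism, all had a ratio and 6 were higher, with a median of 0.27 and values from -0.34 for Chdh to 3.70, a lower bound, for Mat1a, the liver-type methionine adenosyltransferase. In each of these lists, as among the members, some genes were past 2-fold and others within it, and no list held a gene with a ratio below 0.5. Kmo and Cth, of the kynurenine and methionine lists, were higher on their brighter probes (1.27 and 1.06). Their other probes had 0.64 and 0.90, within 2-fold. Of all names 1.96% were higher, and differences between the lists were not tested.

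Markers of cell types were listed for comparison too. The background for their counts was 1.96% of all names higher and 0.564% lower. Of 40 hepatocyte markers 39 had a probe and a ratio, 34 were past 2-fold on the CMS side and none on the C side, and their median log2 ratio was 2.98 with quartiles of 2.63 and 3.30. All 39 were well above background on both arrays and had a log2 ratio above 0. That of the brighter Slc10a1 probe (0.09) was smaller than the SD between spots. Their summed scaled signal went from 542010 (C) to 700987 (CMS), and without Slc10a1, whose probe was the brightest of the list and whose other probe had a log2 ratio of 1.02, it was 40788 and 166900, a ratio of 4.09. The log2 ratio of Hpd (3.55) differed by less than the SD between spots from those of the markers Pck1 (3.57), Hnf4a (3.55) and Alb (3.53), the highest of the list, and the lowest was that of the brighter Slc10a1 probe (0.09). The kynurenine list shares Tdo2 with the hepatocyte list, the urea list shares Cps1 and Arg1, and Trf, of the hepatocyte list, is also made by oligodendrocytes. The part of hepatocyte RNA in the ratios of Hpd, Hgd and Gchfr was not tested. In pooled tissue, more cells of a type and more RNA per cell cannot be told apart. The source of the RNA read by the hepatocyte markers was not tested either.

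Kidney proximal tubule, the other tissue known for this chain, gave no member past 2-fold. Of its 10 markers 7 had a ratio, and the median was -0.14. Values ran from -0.58 (Slc5a2, an upper bound since it was dim in the CMS pool) to 0.31 (Slc5a12). The summed signal went from 1789 (C) to 1597 (CMS). Kupffer cell and liver endothelium markers had a median of 0.70 over 8 of 10, with 3 higher and summed signals of 424 and 664, and values from -0.17 (Lyve1) to 1.15 (Clec4g), the highest ratio measured on both arrays. Clec4f (1.14) and Vsig4 (0.99) of this list are lower bounds. Erythroid markers had a median of 0.44 over 6 of 9 with values from 0.38 (Hbb-bt) to 0.62 (Slc4a1), none past 2-fold, and their summed signal was 123819 and 164041. For oligodendrocytes (10 of 10 with a ratio) the median was -0.15, with values from -0.34 (Mobp) to 0.11 (Mbp). Choroid plexus and astrocyte markers were likewise within 2-fold, with medians of 0.11 and 0.01 that turned to -0.06 and -0.16 without scaling. The choroid plexus values ran from -0.56 (Sostdc1) to 0.35 (Slc4a5, a lower bound) and the astrocyte values from -0.30 (Gfap) to 0.06 (S100b).

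**Figure D4:**
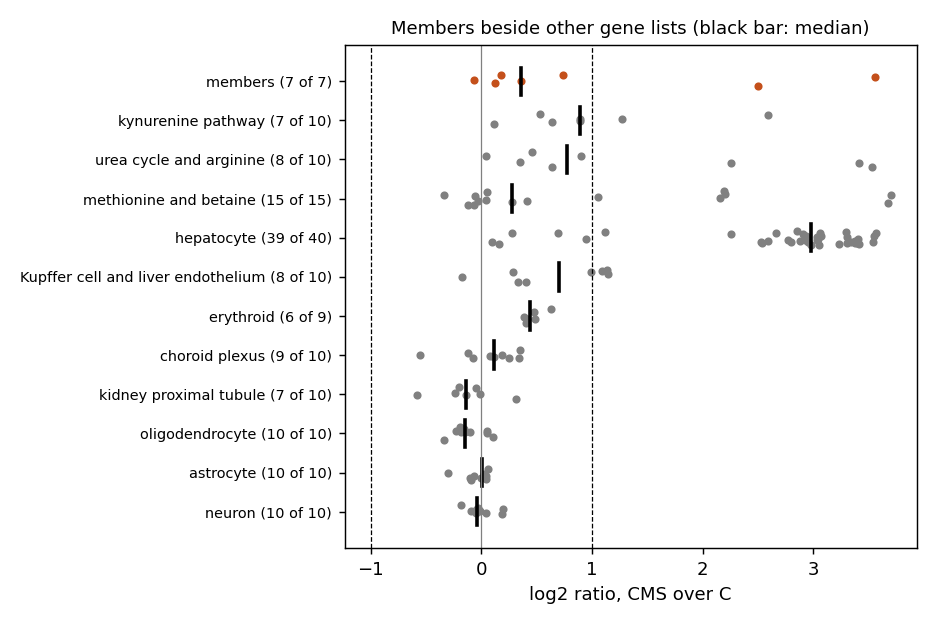
log2 ratio of CMS over C for each gene of the members (top row) and of the comparison lists, with the number of genes with a ratio out of those listed; black bars are medians and dashed lines mark 2-fold. The median is 0.36 for the members, 2.98 for hepatocyte markers and -0.04 for neuron markers.

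The 6 members measured on both arrays kept their order of ratios from Hpd down to Qdpr when the scaling, background correction and treatment of dim probes were varied. Hpd ranged from 2.40, with normexp background correction, its offset of 50 and quantile normalization, to 3.57. It was past 2-fold in all 13 settings. Hgd ranged from 1.35 with normexp to 3.43 where no lowest signal was set for dim probes, and had no ratio where both arrays had to be well above background. Tat ranged from 0.57 to 0.77 and was past 2-fold in none.

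**Figure D5:**
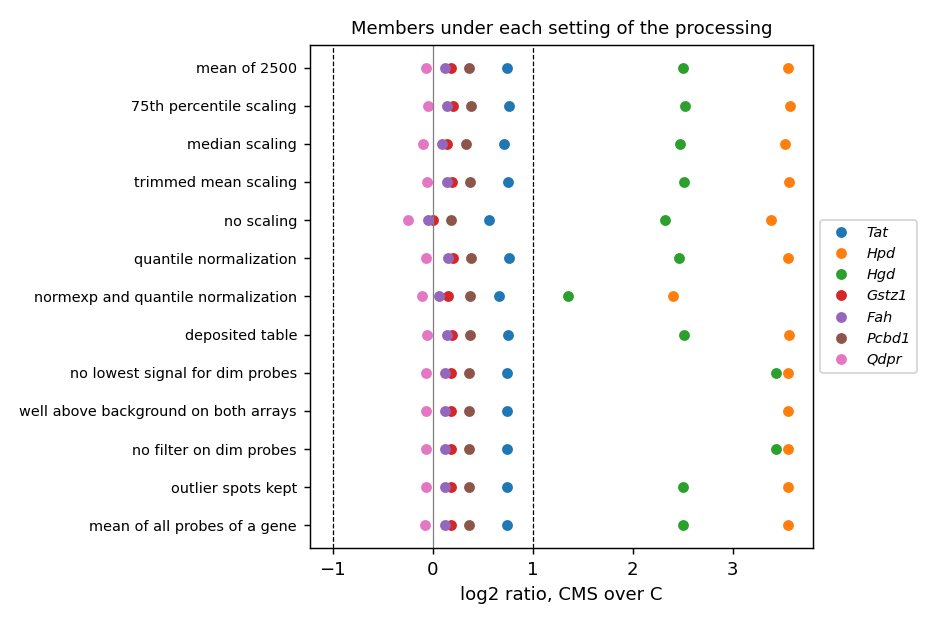
log2 ratio of CMS over C of the 7 members (columns of points) under the setting used here (top row) and 12 alternatives; dashed lines mark 2-fold. Hpd and Hgd stay to the right of the 2-fold line wherever they have a value, and the other members stay between the lines.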

How the data were processed

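PFC RNA of 1 control pool and 1 CMS pool was hybridized to single-color Agilent mouse arrays. The authors extracted spot intensities with Agilent Feature Extraction 10.10.1.1, per the submitters' processing notes, and deposited processed (background-subtracted) intensity per spot, with modelled errors and flags. The deposited value table is the processed signal times 1 factor per array (1.80 for control, 2.05 for CMS), with medians of 148.91 and 152.67 and no centring by gene.

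Outlier spots (130 and 133) and control spots were left out, spots of a probe were averaged, and a factor per array brought the mean over probes to 2500. Accessions, without versions, were matched to genes of RefSeq (GRCm38.p6), which gave a symbol to 30725 of 59305 spots. The brightest probe stood for a gene. A probe not well above background (65.2% and 65.9% of spots were) on 1 array was set to at least the lowest signal well above background there, 17.8 for control and 17.6 for CMS, and the ratio was taken as a bound. Such a bound holds for this processing only and leaves out the error of the brighter signal. A probe dim on both arrays gave no ratio. The number of arrays limits the precision. No spot was saturated.

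The members and gene lists were chosen with earlier results of these data known. Some genes of the pathway lists are not reported here. Named were all members, the genes of the tyrosine and cofactor pathway lists past 2-fold, the highest and lowest of every list, Gapdh and Hnf4a. Further genes, among them Alb, Clec4f, Vsig4, Kmo and Cth, were chosen after their values were seen. Alternatives varied the scaling, background correction, deposited table, dim and outlier spots and the choice of probe. The calculation was tested on simulated data with changes in genes bright on the control array only. The bounds for probes dim in only the C or the CMS pool were not covered. Python 3.11.15, pandas 2.3.3, numpy 2.4.6, matplotlib 3.10.9, R 4.3.3 and limma 3.58.1 were used.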

Additional observations from a re-analysis of the deposited data

How the results depend on the processing

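No paired analysis was possible because each group has 1 array. For the same reason no replicate could be left out, and array and group cannot be told apart. Slide was not fitted as a block because both arrays shared 1 slide and 1 scan. Of the values that answer a comparison, 42 moved by less than the limit set for them, 6 moved by more and 0 changed sign. Most of these values are counts or percentages, which cannot change sign. Outside them some signs did change, as for Fah (0.13, and -0.05 without scaling) and Gapdh (0.04, and -0.13 without scaling). The median log2 ratio of the 7 members, 0.36, was 0.19 without scaling and 0.27 over the 6 members well above background on both arrays, where 1 member (Hpd) instead of 2 was higher because Hgd had no value. The share of all names more than 2-fold higher, 1.96%, was 0.977% with normexp, its offset of 50 and quantile normalization. It was 4.03% where dim probes were kept and 1.16% for names well above background in both pools. The counts of higher and lower names, 532 and 153, were 265 and 38 with normexp, 775 and 315 with no lowest signal for dim probes, 1493 and 1069 where dim probes were kept and 294 and 44 for names well above background in both pools. The signal over background limits Hgd most, since its C level is only bounded.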

Other observations

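The uptake of aromatic amino acids and the use of the end products of the chain were measured as well. Of 6 transporter genes 4 had a ratio and none was past 2-fold, with a median log2 ratio of -0.10. Slc7a5, the light chain of the main blood-brain barrier carrier of large neutral amino acids, was the lowest, going from 1500 (C) to 1225 (CMS), with a log2 ratio of -0.29. Its heavy chain Slc3a2 had -0.12. Slc7a8, a related light chain, was the highest, with -0.04. Slc16a10 and Slc43a1 stayed near background in both pools.

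All 4 genes that use fumarate or acetoacetate were within 2-fold, with a median log2 ratio of -0.03. Fh1, the fumarase, had 0.02 and Bdh1, which interconverts ketone bodies, had -0.15. Dnajc12, a chaperone partner of the aromatic hydroxylases, read 2165 and 2060, a log2 ratio of -0.07.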
